A study of Homo sapiens with 18 samples.

Results

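The comparison described here set HEK293 cells carrying wild-type p65 after 4 h of etoposide against the same cells left untreated. HEK293 is a human embryonic kidney line, and p65 is the NF-kB subunit encoded by RELA. In every sample the cells' own p65 had been silenced with an siRNA, and an HA-tagged p65 that the siRNA does not target had been supplied by lentivirus. The supplied p65 was wild type (wt) in the 6 arrays compared here, 3 untreated and 3 at 4 h, which were chosen by their sample titles from the 18 arrays of the study. The other 12 arrays held wt cells after 8 h of etoposide and cells with the serine-to-alanine form S547A, untreated or after 4 h or 8 h. Each of the 6 groups had 3 arrays, described by the submitters as independent triplicates. The dose of etoposide is not given in the sources used here. One untreated group per line served both times, so that time in culture and treatment cannot be told apart. Genes entered when 1 of their probes was detected, at a detection p below 0.05, on at least 3 of the 18 arrays, and 12055 genes were tested. The p-values measure the spread between these arrays.

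Etoposide traps type II topoisomerases on DNA after they have cut both strands, which leaves double-strand breaks. The kinase ATM responds to such breaks, phosphorylates checkpoint proteins and p53, and with NEMO (IKBKG) also activates the IKK kinases in the cytoplasm. IKK marks the inhibitor IkB-alpha for destruction, p65 enters the nucleus, and its targets include both cytokines and the inhibitors that switch the pathway off again. In cells with damaged DNA the checkpoint also holds back entry into mitosis, a phase whose genes are transcribed late in the cycle.

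The share of probes detected ran from 35.8% to 39.2% over the 18 arrays. Before normalization the median probe intensity was 105.2 to 122.45 on the untreated wt arrays and 95.9 to 115.7 on the 4 h wt arrays. Across the kept probes, arrays of the same group correlated at 0.982 to 0.989 on the log2 scale, and untreated wt arrays against 4 h wt arrays at 0.973 to 0.978. Of 6 markers listed for HEK293, VIM, NEFM, NEFL and CDH2 were detected on all 6 arrays compared here. NES was detected on 2 untreated arrays and 1 treated array, and PAX2 on no untreated array and 1 treated array. Of the markers of other cell types that had a probe, 1 of 7 for blood (CD14), 1 of 7 for keratinocytes and epithelia (KRT10) and 0 of 6 for endothelium were detected on all 3 arrays of a group. Of 8 fibroblast markers COL3A1 was detected on all 3 untreated arrays and 1 treated array, and COL1A1 on 2 untreated arrays and all 3 treated ones. PTPRC, CD3E and HBB of blood, KRT5, KRT14 and KRT1 of keratinocytes and CDH5, KDR, VWF and CLDN5 of endothelium were detected on none of the 6 arrays. LYZ, FAP, PECAM1 and TEK were each detected on 1 treated array and no untreated one. The epithelial EPCAM and the fibroblast LUM were each detected on 1 untreated and 2 treated arrays, and the fibroblast DCN on 1 untreated and 1 treated array. All levels below are normalized log2 intensities, given as arrays 1, 2 and 3 of a group, and all changes are differences of log2 group means with the standard error (SE) of the fit.

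After 4 h, 753 of 12055 genes (6.25%) were called higher and 503 (4.17%) lower, at an adjusted p below 0.05 in limma's test. Together these are 10.4% of the genes tested. The counts of called genes given below for gene lists are to be read beside these shares. The largest rises belonged to the transcription factor EGR1, to the cytokines CCL20, CXCL8, TNF and CXCL1, and to TNFAIP3, an inhibitor of NF-kB. The largest falls belonged to INHBE, a secreted stress-response factor, and CENPA, the histone H3 variant of centromeres. Rises reached further than falls: 120 called genes (0.995%) were at least 2-fold higher and 72 (0.597%) at least 2-fold lower, 18 rose and 2 fell at least 4-fold, and 4 rose at least 16-fold. Scaling the arrays to a common median in place of quantile normalization moved the median change of all genes to -0.11 from 0.00. Under that scaling 32.9% of the called genes were higher, against 60% in the main setting. Arrays separated fully for a larger set of genes, with all treated arrays above all untreated ones for 15.9% of genes and below for 14.3%.

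Immediate early genes, transcription factors and feedback regulators that cells switch on without new protein synthesis, held many of the largest rises. EGR1, a zinc finger factor of this class, read 5.29, 5.29 and 5.94 on the untreated arrays and 10.42, 10.14 and 10.66 at 4 h. Its treated arrays were more than 4 log2 units above the highest untreated one, a change of 4.90 ± 0.23 or 29.9-fold (adjusted p 4e-10). Among 12 measured EGR and KLF factors, EGR1, KLF10 (1.76 ± 0.18) and KLF6 (1.16 ± 0.12) rose and none fell. The median over the 12 was 0.05, beside 0.00 for all genes, and it turned to -0.04 under median scaling. A second kept probe of KLF10 changed by 1.82 and the other by 0.26.

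The promoter of EGR1 is shown because SRF, the factor that drives it in many cells, binds CArG boxes. It is the plus strand of chr5:138465229-138465478 (GRCh38.p14, from RefSeq), 250 bases that end at the gene's start. Capitals mark 2 CArG boxes and 1 match to the cell cycle element TTTGAA on the opposite strand.
EGR1: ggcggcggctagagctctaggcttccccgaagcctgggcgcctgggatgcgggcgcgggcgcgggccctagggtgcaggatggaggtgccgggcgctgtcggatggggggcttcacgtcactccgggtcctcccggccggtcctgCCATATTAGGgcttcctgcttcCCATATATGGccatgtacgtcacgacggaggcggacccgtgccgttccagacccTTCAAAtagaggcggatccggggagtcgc

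The CArG boxes began 105 and 83 bases before the start. Of the promoters of all genes tested that RefSeq's table holds, 9654 of 12055, only 1.03% had a CArG box within these 250 bases, searched on both strands. EGR1 was the sole holder among the 9 promoters found for risen EGR, KLF and AP-1 genes. The promoter of ATF3, picked by the same rule but not printed, had no CArG box. Its only marked match was a CCAAT box on the opposite strand, 25 to 21 bases before the start.

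AP-1 is a dimer of JUN, FOS and ATF proteins. Of its 12 measured genes, 7 rose and none fell, beside 6.25% of all genes called higher. The median change was 0.74, and 5 or 6 rose when 1 array was left out. ATF3, a stress-induced repressor and activator of this family, stood at 10.03, 9.80 and 9.95 untreated and at 11.93, 11.97 and 12.10 after etoposide. This is a rise of 2.07 ± 0.12 or 4.20-fold (adjusted p 7.56e-09). JUN, the best known partner in the dimer, rose from 11.37, 11.36 and 11.44 to 13.02, 13.20 and 13.26, by 1.77 ± 0.12. The 3 arrays of each group lay within 0.3 of each other for both genes. FOSB and JUNB were not detected on any untreated array and were detected on all 3 treated ones. FOSB was at least 1.93-fold higher (adjusted p 0.00258), although 1 treated array, at 6.88, stood a full log2 unit above the others at 5.71 and 5.86. JUNB was at least 1.87-fold higher (adjusted p 4.66e-05).

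Of 22 other immediate early genes, 13 rose and none fell, with a median of 0.63, beside 6.25% of all genes called higher. Leaving out 1 array gave 9 to 12 higher, and median scaling gave 10. IER3, a short-lived regulator of survival, read 7.46, 8.03 and 7.58 untreated and 10.24, 10.08 and 10.05 at 4 h (2.43 ± 0.15, adjusted p 1.61e-08). PPP1R15A, which brings a phosphatase to the translation factor eIF2-alpha, rose from 9.14, 9.12 and 9.09 to 11.49, 11.40 and 11.54. Its change of 2.36 ± 0.11, 5.13-fold, came with treated arrays within 0.15 of each other. CSRNP1, a nuclear protein induced by growth and stress signals, rose by 2.13 ± 0.16 and IER2 by 1.75 ± 0.19. MCL1, an antiapoptotic BCL2 relative with a short-lived transcript, rose by 0.89 ± 0.16, while its second probe changed by 0.29. MYC was already among the brighter transcripts, with 12.89, 12.96 and 13.19 untreated and 13.38, 13.37 and 13.48 at 4 h. Its arrays did not overlap, but the change of 0.39 ± 0.13 was not called (adjusted p 0.0721).

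The phosphatases that switch MAP kinases off followed in part. DUSP1, which acts on p38, JNK and ERK in the nucleus, read 9.17, 8.97 and 9.33 untreated and 11.02, 11.47 and 11.49 treated, a rise of 2.17 ± 0.17 (adjusted p 2.53e-07). Of 13 measured MAP kinase feedback genes 4 rose and none fell, with a median of 0.24. DUSP5, an ERK phosphatase, rose by 0.95 ± 0.18. DUSP8 (0.75 ± 0.17) and DUSP14 (0.48 ± 0.11) were called too, both not under median scaling.

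NF-kB itself is a dimer drawn from 5 subunits, and 4 of the 5 transcripts rose. RELA read 7.43, 7.97 and 7.99 untreated and 9.38, 9.43 and 9.48 at 4 h, a rise of 1.63 ± 0.15 or 3.09-fold (adjusted p 1.57e-06). Whether its probe reads the silenced endogenous transcript, the supplied one or both is not given in the sources used here. RELB, the subunit of the alternative pathway, was not detected untreated and was at least 1.65-fold higher at 4 h (adjusted p 0.0017). The precursors NFKB2 (0.80 ± 0.18, adjusted p 0.00898) and NFKB1 (0.40 ± 0.12, adjusted p 0.0493) changed less, and the call of NFKB2 was lost without background correction (adjusted p 0.0569). The call of NFKB1 was lost in 7 of 17 alternative settings. The median over the 5 subunits was 0.80.

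Of 16 measured kinases and adaptors that carry the signal to NF-kB, 1 rose and 1 fell, a share near the 10.4% of all genes called, and the median change was 0.06 (-0.03 under median scaling). IKBKG, the NEMO protein that links nuclear ATM to IKK, rose from 8.14, 8.62 and 8.29 to 8.95, 9.07 and 8.97, by 0.65 ± 0.14, a call not held under median scaling (adjusted p 0.106). ERC1, which joins the IKK complex and is also known from synapses, fell from 7.21, 7.49 and 7.48 to 6.09, 6.62 and 6.79 (-0.89 ± 0.18), and its second probe changed by -0.29.

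Among the inhibitors that NF-kB induces against itself were some of the largest rises. TNFAIP3, the ubiquitin-editing enzyme A20, was near background untreated, at 5.18, 4.90 and 5.18 with detection on 1 array. It reached 9.29, 9.14 and 9.15 at 4 h, a change of 4.11 ± 0.14 or 17.2-fold (adjusted p 1.01e-11). NFKBIA, which encodes IkB-alpha, began far higher, at 9.13, 9.30 and 9.59, and rose to 12.06, 12.36 and 12.09. This 7.10-fold change (2.83 ± 0.15, adjusted p 2.05e-09) separated the groups by more than 2 log2 units. NFKBIZ, a nuclear cofactor, rose from 6.40, 5.23 and 5.27 to 7.65, 7.57 and 7.61, and untreated array 1 stood more than 1 unit above the other untreated arrays. BCL3, another nuclear IkB protein, was not detected untreated and reached at least 1.42-fold that level (adjusted p 0.00149). In all, 5 of 12 measured inhibitors rose and none fell, with a median of 0.43.

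Cytokines and chemokines, messengers to other cells, included 4 of the 6 largest rises of the whole comparison. CCL20, which attracts lymphocytes and dendritic cells through CCR6, read 6.73, 6.17 and 6.55 untreated and 10.99, 10.81 and 10.85 at 4 h. Its change was 4.40 ± 0.17, or 21.1-fold (adjusted p 2.34e-11). CXCL8, the neutrophil attractant interleukin-8, rose from 6.29, 5.80 and 6.82 to 10.73, 10.60 and 10.60 (4.34 ± 0.19, 20.3-fold, adjusted p 1.42e-10). A second CXCL8 probe rose by 2.35. For both chemokines the treated arrays were tighter than the untreated ones.

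The promoters of CCL20 and CXCL8 are shown because both genes are classical NF-kB targets. They are the plus strands of chr2:227813592-227813841 and chr4:73740319-73740568 (GRCh38.p14, from RefSeq), 250 bases up to each start. Capitals mark a kB site and 2 CCAAT boxes in CCL20, and an AP-1 site in CXCL8.
CCL20: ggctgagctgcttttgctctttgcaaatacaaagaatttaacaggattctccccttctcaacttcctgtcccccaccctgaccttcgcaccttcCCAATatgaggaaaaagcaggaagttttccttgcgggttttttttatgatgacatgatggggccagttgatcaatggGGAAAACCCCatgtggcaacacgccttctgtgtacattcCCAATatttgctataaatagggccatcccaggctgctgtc
CXCL8: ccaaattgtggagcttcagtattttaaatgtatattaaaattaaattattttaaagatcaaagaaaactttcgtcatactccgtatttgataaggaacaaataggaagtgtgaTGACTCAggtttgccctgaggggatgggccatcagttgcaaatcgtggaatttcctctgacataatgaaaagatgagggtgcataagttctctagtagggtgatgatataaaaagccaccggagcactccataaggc

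The kB site of CCL20 lies on the opposite strand, 79 to 70 bases before the start. CXCL8 had no match to the strict kB pattern searched in this window, and its AP-1 site, TGACTCA, lay 137 to 131 bases before the start. Of 18 promoters found for the 20 risen cytokines, inhibitors and other inducible NF-kB targets, 10 (55.6%) held a kB site, beside 6% of all promoters. TATAAA was found in 44.4% of the 18 and in 5.93% of all. AP-1 sites, TGACTCA or TGAGTCA, were found in 11.1% and 2.48%. The lists name known NF-kB targets, whose kB sites are part of why they are known, so these shares describe the members only. Over the 97 promoters found for genes at least 2-fold higher, 15.5% held a kB site and 8.25% the cyclic AMP element TGACGTCA, which 2.97% of all promoters held. Members of these lists are among the 97, so this kB share is not separate from theirs.

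TNF, the founding cytokine of its family, was not detected on any untreated array (4.71, 4.54 and 4.98) and read 8.33, 8.37 and 8.60 at 4 h. It was at least 9.38-fold higher (adjusted p 1.01e-11). CXCL1, a neutrophil attractant related to CXCL8, was likewise not detected untreated and read 7.92, 7.77 and 7.97 treated, at least 6.42-fold higher (adjusted p 2.18e-08). IL32, a proinflammatory cytokine of primates and some other mammals, rose from 5.70, 6.30 and 5.45 to 7.54, 7.71 and 7.42 (1.74 ± 0.19). Of 24 listed cytokines 13 passed the detection filter, and 5 of these were detected on all 6 arrays. Of the 13 measured 6 rose, none fell and the median was 0.61, beside 6.25% of all genes called higher. Members at background when untreated could hardly be called lower. The median depended on the filter: 1.54 over 10 members detected on 3 of the 6 compared arrays, and 1.74 over 9 at a detection p under 0.01.

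Among 23 other inducible NF-kB targets 9 rose and none fell, with a median of 0.67. CD83, a surface protein of activated immune cells, read 6.83, 6.49 and 6.85 untreated and 9.32, 9.18 and 9.29 at 4 h (2.54 ± 0.12, adjusted p 6.32e-10), and its second probe rose by 2.77. IRF1, the transcription factor that carries NF-kB and interferon signals, rose from 7.11, 7.41 and 7.50 to 9.25, 9.62 and 9.61. The protease inhibitor PI3 (elafin) was not detected on any untreated array and read 7.16, 6.95 and 6.86 at 4 h, at least 3.46-fold higher (adjusted p 9.13e-10). SELE, the adhesion molecule E-selectin best known from endothelium, was at least 4.25-fold higher by its brighter probe (adjusted p 2.99e-07), while its other probe changed by -0.06. None of the 6 endothelial markers passed the detection filter, so their change was not tested. The plot of risen genes shows CD83 and IRF1 by array, with other genes named above, but not PI3 or SELE.

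**Figure D1:**
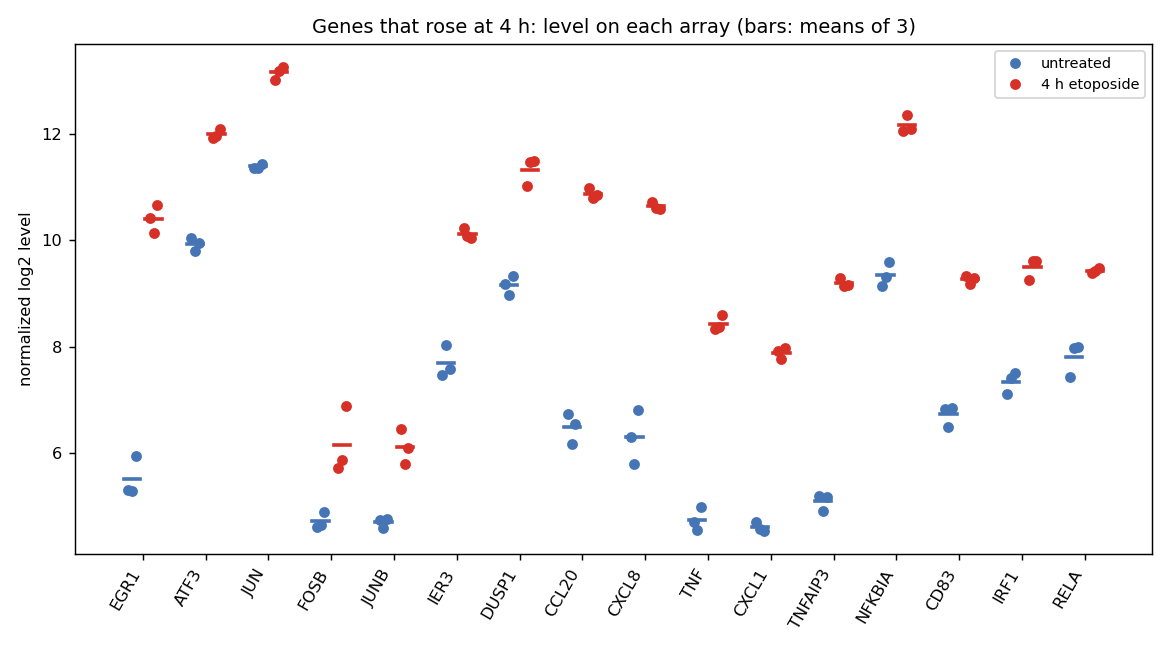
Normalized log2 level of 16 risen genes on each of the 3 untreated (blue) and 3 etoposide-treated (red) wt arrays, with bars at the means of 3. No treated array overlaps an untreated one for any gene shown, and EGR1, CCL20, CXCL8 and TNFAIP3 show changes above 4 log2 units.

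Of 21 checkpoint kinases and mediators of the DNA damage response 3 rose and 2 fell, beside 10.4% of all genes called either way, with a median of 0.00. CDC25A, a phosphatase that activates CDKs for S phase, rose by 0.89 ± 0.16 and its second probe by 0.42. RAD9A, part of the clamp loaded at damaged DNA, rose by 0.95 ± 0.22. CDC25C, the phosphatase that starts mitosis, fell from 7.55, 7.77 and 7.58 to 6.99, 7.17 and 6.87 (-0.62 ± 0.14), with other probes at -0.11 and -0.75. The mitosis-restraining kinases WEE1 (-0.39 ± 0.12, adjusted p 0.0473) and PKMYT1 (0.52 ± 0.15, adjusted p 0.0401) were called in opposite directions, each call lost in 8 of 17 alternative settings. Among 18 genes of break and crosslink repair 4 rose and none fell, and 2 to 4 rose when 1 array was left out (2 without untreated array 1 or 3 or treated array 2 or 3). The nuclease EXO1, which resects broken ends, showed the largest of these changes, from 9.58, 9.44 and 9.55 to 10.45, 10.43 and 10.51 (0.94 ± 0.10, adjusted p 1.68e-05). Its second probe rose by 1.05. The list's median was 0.14 and turned to -0.01 under median scaling, where 1 gene of the list was called.

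The enzymes that etoposide traps were read too. TOP2A, the topoisomerase II of dividing cells, fell from 11.56, 11.42 and 11.59 to 10.99, 10.95 and 11.16, by 0.49 ± 0.15 on the log2 scale (adjusted p 0.043). The groups did not overlap, but the call was lost whichever of the 6 arrays was left out. TOP2B, the form present throughout the cycle, read 10.34, 10.21 and 10.37 untreated and 10.35, 10.03 and 10.45 treated, and its arrays overlapped (-0.04 ± 0.15, adjusted p 0.921). TOP3A (0.53 ± 0.16) and TOP3B (0.57 ± 0.15), which act on single strands, were called higher, each call lost in 7 of 17 settings.

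Of 30 listed genes of p53 and its targets 24 were measured. HEK293 carries adenoviral E1 proteins, of which E1B binds and restrains p53, and whether this bears on the changes below was not tested. CDKN1A, the CDK inhibitor p21, rose from 8.87, 9.06 and 8.98 to 10.07, 10.00 and 10.14, by 1.10 ± 0.13 or 2.14-fold (adjusted p 5.13e-05). MDM2, the p53 ubiquitin ligase, was not detected on any of the 6 arrays and its change of 0.18 ± 0.23 was not called. Of the 24 measured p53 genes 5 rose and none fell, beside 6.25% of all genes called higher. Their median was 0.05 (-0.08 under median scaling, with 2 called). PMAIP1, the BH3-only protein NOXA, rose by 0.61 ± 0.13 and the repressor E2F7 by 0.64 ± 0.16, both calls lost under median scaling. The GADD45 stress sensors, which join p53 to other pathways, rose at 3 of 4 listed genes. GADD45A, which the p53 list also holds, read 8.64, 8.68 and 8.89 untreated and 10.40, 10.53 and 10.27 at 4 h (1.67 ± 0.12, adjusted p 1.24e-07). Its second probe rose by 1.59. GADD45B, an NF-kB target, rose from 6.72, 6.43 and 6.40 to 8.70, 8.75 and 8.27 (2.05 ± 0.18). GADD45G rose from 9.48, 9.69 and 9.56 to 11.28, 11.16 and 11.28 (1.66 ± 0.13).

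Apoptosis regulators were mixed, with 5 of 21 higher (2 under median scaling), 1 lower and a median of -0.05. BAK1, which opens the mitochondrial outer membrane, rose from 5.65, 5.88 and 5.89 to 6.57, 6.38 and 6.76 (0.76 ± 0.15, adjusted p 0.00386), and the antiapoptotic MCL1 rose as given above. DIABLO, which frees caspases from their inhibitors, rose by 0.51 ± 0.13, a call lost in 4 of 17 settings. BIRC5 (survivin), which works in both apoptosis and mitosis, fell by 0.52 on the log2 scale (SE 0.13, adjusted p 0.0174), a call lost in 3 of 17 settings.

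Of 21 G1/S and E2F genes 5 rose and 1 fell, beside 10.4% of all genes called, and under median scaling 1 rose and 1 fell. Without untreated array 3 or treated array 1, 3 rose. E2F2, an activator of S-phase genes, rose from 9.24, 9.55 and 9.38 to 10.16, 10.29 and 10.40 (0.89 ± 0.14, adjusted p 0.000575). E2F8, a repressor, was not detected untreated, with a rise of at least 1.39-fold at 4 h (adjusted p 0.0205), a call lost in 6 of 17 settings. CDK6, a G1 kinase, fell from 9.96, 9.63 and 9.59 to 9.04, 9.12 and 9.19 (-0.61 ± 0.13). Of 27 replication genes 5 were called higher and none lower, with a median of 0.23, but none of the 27 was called under median scaling, where the median was 0.07. Without untreated array 1, 2 of the 27 were called. The licensing factor CDT1 (0.59 ± 0.15) and its inhibitor GMNN (0.59 ± 0.12) were among the 5.

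Many genes of mitosis fell. Of 24 mitotic kinases, cyclins and their regulators 12 were lower and 2 higher, with a median of -0.52, and of 29 kinesins and spindle proteins 15 were lower and none higher, with a median of -0.42. These shares compare with 4.17% of all genes called lower. The count of kinesins and spindle proteins fell to 7 to 11 when 1 array was left out and to 9 with the compared arrays only. It was 8 or 9 without untreated array 1 or 3 or treated array 2 or 3, and 7 without treated array 1. That of mitotic kinases and cyclins was 9 to 11 when 1 array was left out. In bulk RNA, fewer cells in mitosis and less RNA of these genes per cell cannot be told apart. PLK1, the kinase that drives mitotic entry, read 8.20, 8.29 and 8.55 untreated and 6.37, 6.70 and 6.67 at 4 h (-1.77 ± 0.25, 3.40-fold lower, adjusted p 0.000214). AURKA, which matures the spindle poles, fell from 10.33, 10.27 and 10.17 to 8.54, 8.64 and 8.63 (-1.65 ± 0.11, adjusted p 4.04e-08), and its second probe by -1.67. CCNB1, the cyclin partner of CDK1, fell from 9.43, 9.67 and 9.60 to 8.12, 8.11 and 7.94 (-1.51 ± 0.12, adjusted p 2.7e-07). UBE2C, an enzyme of the anaphase-promoting complex, fell from 11.54, 11.70 and 11.52 to 10.24, 10.57 and 10.54. Among the 2 that rose, MASTL (0.78 ± 0.11) protects mitotic phosphorylation, and FBXO5 (0.67 ± 0.18, a call lost in 4 of 17 settings) inhibits the anaphase-promoting complex.

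Of the spindle proteins, HMMR, which binds hyaluronan and microtubules, fell from 9.40, 9.08 and 9.56 to 7.78, 7.96 and 7.80 (-1.50 ± 0.13, adjusted p 1.18e-06). KIF20A, a kinesin of the central spindle, fell from 9.98, 9.94 and 10.07 to 8.72, 8.45 and 8.55 (-1.42 ± 0.14). KIF14, needed for cytokinesis, fell by 0.88 ± 0.10 on the log2 scale, and DLGAP5 by 0.97 ± 0.28, a call lost in 6 of 17 settings.

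Centromere and kinetochore genes fell in part. Of 31, 9 fell and 2 rose, and the median change was 0.02, beside 0.00 for all genes. Under median scaling 9 fell and none rose. Leaving out 1 array gave 5 to 7 lower, with 5 without untreated array 2 or 3. CENPA, which marks the centromere, had the largest fall of the list, from 8.47, 8.36 and 8.56 to 6.07, 6.36 and 6.36 (-2.20 ± 0.14, 4.60-fold lower, adjusted p 2.18e-08). Its second probe fell by 1.69 on the log2 scale. CENPE, a kinetochore motor, fell from 9.56, 9.40 and 9.50 to 8.31, 8.23 and 8.43. The microtubule-binding NDC80 fell by 0.85 ± 0.14 on the log2 scale. INCENP, a scaffold for Aurora B, fell by 1.11 ± 0.23. CENPT (0.43 ± 0.13) and CPAP (0.64 ± 0.14) were called higher, the first lost in 8 of 17 settings and the second under median scaling. CPAP, formerly named CENPJ, is a protein of centrioles rather than of centromeres.

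The promoters of CENPA, PLK1 and CCNB1 are shown because late cell cycle genes are known to carry CHR elements and CCAAT boxes, which the DREAM complex and NF-Y bind. They are the plus strands of chr2:26785806-26786055, chr16:23678639-23678888 and chr5:69166900-69167149 (GRCh38.p14, from RefSeq). Capitals mark the CHR, written here as TTTGAA or TTCGAA, and CCAAT, each read on both strands.
CENPA: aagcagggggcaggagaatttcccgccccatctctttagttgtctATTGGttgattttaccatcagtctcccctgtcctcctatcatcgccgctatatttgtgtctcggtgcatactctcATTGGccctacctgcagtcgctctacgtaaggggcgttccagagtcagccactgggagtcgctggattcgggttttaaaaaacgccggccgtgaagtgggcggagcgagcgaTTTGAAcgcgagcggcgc
PLK1: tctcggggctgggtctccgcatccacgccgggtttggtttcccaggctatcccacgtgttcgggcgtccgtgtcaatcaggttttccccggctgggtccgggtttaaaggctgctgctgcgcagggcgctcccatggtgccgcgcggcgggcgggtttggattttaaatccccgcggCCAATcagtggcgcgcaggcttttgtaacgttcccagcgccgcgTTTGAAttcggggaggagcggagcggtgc
CCNB1: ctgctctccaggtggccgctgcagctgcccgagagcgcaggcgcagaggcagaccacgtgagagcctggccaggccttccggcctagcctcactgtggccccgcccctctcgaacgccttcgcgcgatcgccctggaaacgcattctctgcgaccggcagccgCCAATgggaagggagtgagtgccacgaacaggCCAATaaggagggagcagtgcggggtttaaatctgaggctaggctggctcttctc

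The CHR of CENPA ended 13 bases before the start and that of PLK1 24 bases before it, while CCNB1 had 2 CCAAT boxes and no CHR in this window. Of 30 promoters found for the 36 fallen genes of the 3 mitotic lists, 16 (53.3%) held a CHR and 70% a CCAAT box, beside 10% and 35.9% of all promoters. Including the 50 bases after the start raised the CHR share to 73.3%, beside 11.6% of all. None of the 30 held a kB site. The lists name genes of mitosis, for which CHR and CCAAT elements are already known, so these shares describe the members only. Over the 420 promoters found for all genes called lower, 17.1% held a CHR, and over the 622 found for genes called higher 9.49%. Promoters of the fallen mitotic genes are among the 420.

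**Figure D2:**
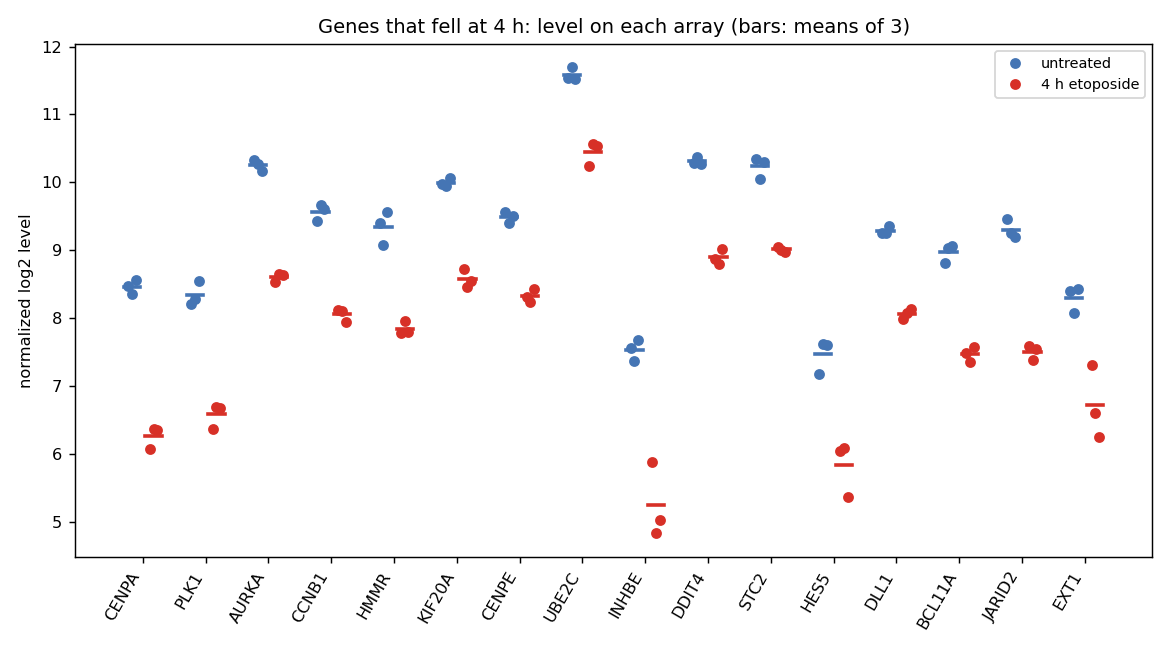
Normalized log2 level of 16 fallen genes on each of the 3 untreated (blue) and 3 etoposide-treated (red) wt arrays, with bars at the means of 3. All treated arrays lie below all untreated ones for every gene shown, and INHBE and EXT1 show the widest spread among treated arrays.

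Developmental regulators were among the fallen genes. Of 22 genes of the Notch, HES and ID families 6 were lower and none higher, with a median of -0.24. HES5, a repressor induced by Notch, read 7.18, 7.62 and 7.61 untreated and 6.04, 6.09 and 5.36 at 4 h (-1.64 ± 0.22, adjusted p 0.000118). DLL1, a Notch ligand, fell from 9.26, 9.25 and 9.35 to 7.98, 8.07 and 8.13, and its arrays were within 0.15 of each other in each group (-1.23 ± 0.11, adjusted p 1.53e-06). The receptor NOTCH2 fell by 0.96 ± 0.16 on the log2 scale. ID2, which blocks basic helix-loop-helix factors, fell from 10.70, 10.64 and 10.48 to 9.55, 9.81 and 9.85, and its second probe by 0.64. Of 16 HOX, SOX and related factors 6 fell and none rose, with a median of -0.36. BCL11A, a zinc finger repressor best known for silencing fetal globin, fell from 8.81, 9.04 and 9.07 to 7.48, 7.35 and 7.57 (-1.50 ± 0.15, adjusted p 4.47e-06). SOX2, the stem cell factor, fell from 7.69, 7.44 and 7.73 to 6.59, 6.58 and 6.81. The segment identity genes HOXB8 (-0.91 ± 0.16) and HOXC4 (-0.74 ± 0.14) fell too.

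The integrated stress response, in which ATF4 raises genes of amino acid supply, held many fallen members. Of 25 measured, 10 fell and 2 rose, with a median of -0.39. INHBE, an activin subunit, fell from 7.56, 7.36 and 7.68 to 5.87, 4.83 and 5.02 and was detected on only 1 treated array (-2.29 ± 0.32, 4.90-fold lower, adjusted p 0.000153). DDIT4, an inhibitor of mTORC1, fell from 10.29, 10.37 and 10.28 to 8.87, 8.79 and 9.02 (-1.42 ± 0.17, adjusted p 3.2e-05). STC2, a secreted glycoprotein, fell from 10.35, 10.05 and 10.30 to 9.05, 9.01 and 8.98. The lipoprotein receptor VLDLR was not detected at 4 h and was at least 1.50-fold lower (adjusted p 0.000294). The 2 that rose were PPP1R15A, given above, and the transcription factor ATF5 (0.76 ± 0.15, not called under median scaling, adjusted p 0.0703).

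Heat shock proteins showed rises at 4 of 16 measured members (2 without untreated array 1 or 2 or treated array 3), none of which was called under median scaling, where the list's median turned to -0.02 from 0.12. HSPA1A, an inducible HSP70, read 11.99, 12.27 and 11.90 untreated and 12.78, 12.78 and 12.68 at 4 h (0.69 ± 0.12, adjusted p 0.00107). HSPA1B is nearly identical in sequence and its probe changed by 0.57 ± 0.15, so signal of these genes may not be separable. Of 15 interferon-stimulated genes 3 rose and none fell: IRF1 as given above, IRF7 (0.91 ± 0.23, lost in 3 of 17 settings) and IFI27 (0.68 ± 0.21, lost in 12 of 17). Leaving out 1 array gave 1 to 4 higher. Hypoxia and glycolysis genes had 1 of 13 called, ADM (0.49 ± 0.12, lost in 3 of 17 settings). The metallothionein list had 1 of 6, its regulator MTF1 (0.59 ± 0.15, lost in 7 of 17). These counts stand beside 10.4% of all genes called. None of 12 sterol-regulated genes was called.

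Transcripts that host small nucleolar RNAs in their introns were among the risen genes. Of 13 measured 8 rose and none fell, with a median of 0.58, beside 6.25% of all genes called higher, and 6 of the 13 were called under median scaling. SNHG12 read 6.56, 6.93 and 6.37 untreated and 9.10, 8.77 and 8.53 at 4 h (2.18 ± 0.18, 4.53-fold, adjusted p 6.2e-07). SNHG17 rose from 8.85, 9.40 and 8.80 to 10.76, 10.54 and 10.65 (1.63 ± 0.18). SNHG15 rose from 10.58, 10.46 and 10.62 to 11.78, 11.67 and 11.84 (1.21 ± 0.13), and its second probe by 1.30. SNHG1 rose by 1.19 ± 0.13. Spliced transcripts of many such genes are removed by nonsense-mediated decay. Of 9 measured decay factors 1, SMG8, was called higher (0.48 ± 0.12, lost in 5 of 17 settings), a share near that of all genes.

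Splicing factors and the CLK kinases that phosphorylate them rose at 6 of 15 members, with a median of 0.32 and 3 calls under median scaling. CLK4 read 5.47, 4.75 and 4.97 untreated, detected on 1 array, and 6.22, 6.69 and 6.56 at 4 h (1.43 ± 0.24, adjusted p 0.000936). CLK3 rose from 7.63, 8.02 and 7.55 to 8.77, 8.87 and 8.93 (1.13 ± 0.18), and its second probe by 0.60. CLK1 rose by 1.26 ± 0.29 at the brighter probe and its second probe changed by 0.13. The call was lost when probes were averaged (adjusted p 0.0801).

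Reference lists are given beside these groups as a description only, since they too were chosen with earlier results of these data known. None of 21 ribosomal protein genes, 19 genes of oxidative phosphorylation and 11 housekeeping genes was called, and their median changes were 0.00, -0.01 and 0.04. Of 9 histone genes 1 was called, H2BC5, which was not detected at 4 h (at least 1.22-fold lower, adjusted p 0.0323, lost in 9 of 17 settings). The cell type lists held 1 call, KRT10 among 2 measured keratinocyte genes (0.39 ± 0.10, lost in 6 of 17 settings). Neither the 2 blood nor the 5 fibroblast markers measured were called. CDH2, N-cadherin, was the 1 of 5 measured HEK293 markers called, lower by -0.40 ± 0.11, lost in 6 of 17 settings. The plot of gene lists gives the counts side by side.

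**Figure D3:**
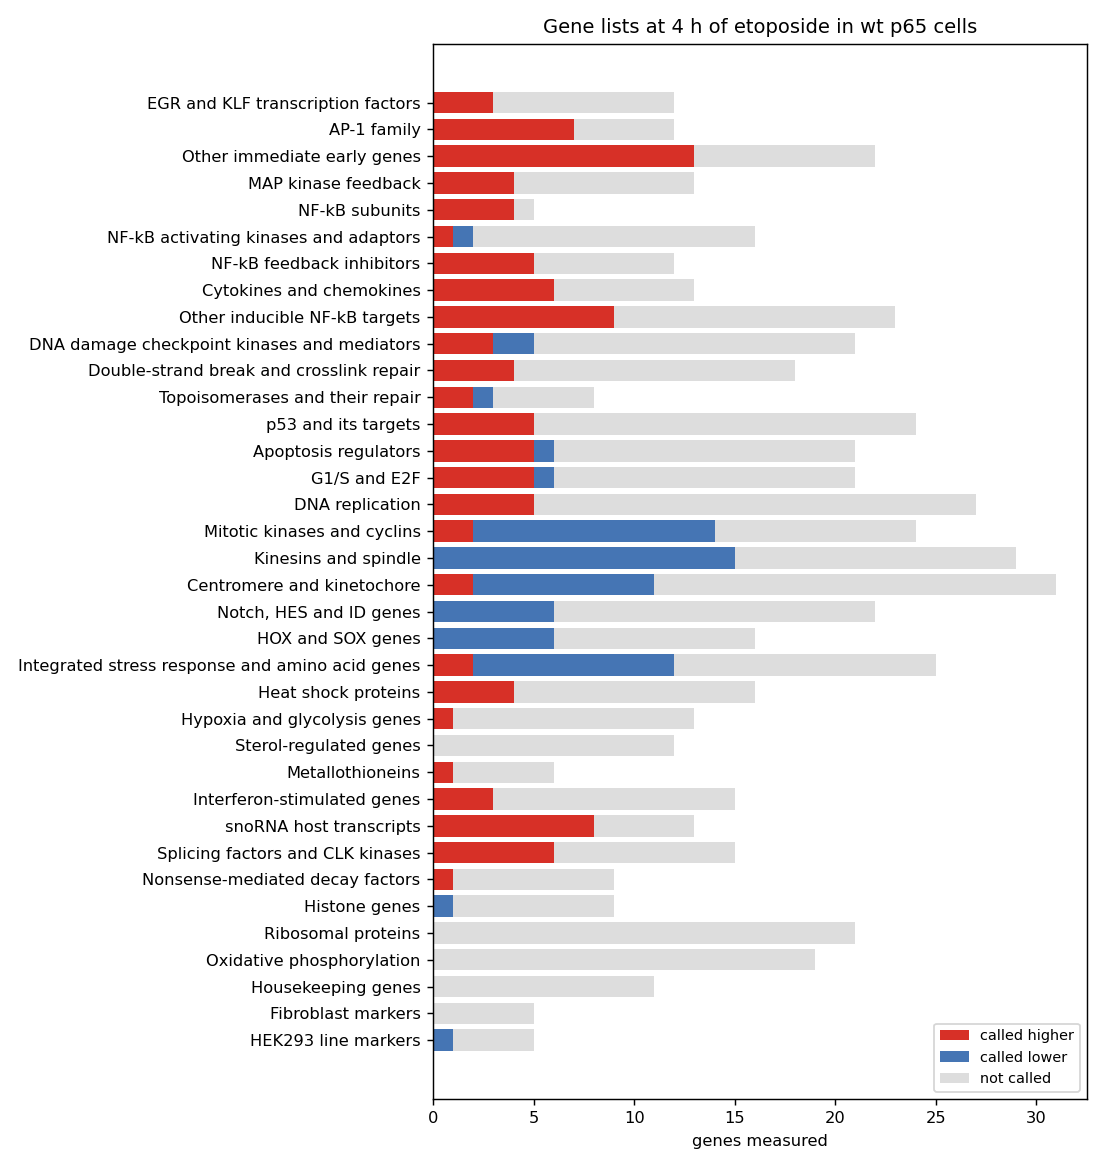
Number of measured genes per list that were called higher (red), lower (blue) or not called (grey) at 4 h of etoposide in wt cells, for lists with at least 5 measured members. Red fills 4 of 5 NF-kB subunits and 8 of 13 snoRNA host transcripts, blue fills 15 of 29 kinesins and spindle proteins (7 to 11 when 1 array was left out), and the ribosomal bar has neither.

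Many of the larger changes were outside the lists, which held 47 of the 120 genes at least 2-fold higher and 17 of the 72 at least 2-fold lower. TNFRSF12A, the receptor of the cytokine TWEAK, rose from 6.25, 6.55 and 5.88 to 8.46, 8.03 and 8.08 (1.96 ± 0.19, adjusted p 3.6e-06). JARID2, a partner of the Polycomb repressive complex PRC2, fell from 9.46, 9.26 and 9.19 to 7.58, 7.38 and 7.54 (-1.80 ± 0.15, adjusted p 5.24e-07). EXT1, which builds heparan sulfate, fell from 8.40, 8.08 and 8.43 to 7.31, 6.59 and 6.25, with treated arrays more than 1 log2 unit apart. ANKRD11, a chromatin regulator, fell from 9.91, 9.94 and 9.98 to 8.46, 8.44 and 8.44, with treated arrays within 0.03 of each other. PSRC1, a microtubule regulator of mitosis, fell from 7.04, 7.30 and 7.14 to 6.12, 5.29 and 5.60. The transcription factor NFIB fell by 1.46 ± 0.24 on the log2 scale, and its second probe by 0.82. FAM72D fell by 1.46 ± 0.12, but it has near-identical copies that its probe may also read.

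For several fallen genes the probe dropped out of detection or other probes differed. GNAQ, a G protein subunit, fell from 6.42, 6.73 and 6.94 to levels not detected at 4 h, at least 2.77-fold lower (adjusted p 0.000451). MKX, a homeobox factor of tendon, was likewise at least 2.29-fold lower (adjusted p 0.000518), and SLC6A9, the glycine transporter GLYT1, at least 2.56-fold (adjusted p 0.000717). RUNX1T1, a corepressor, was at least 2.58-fold lower by its brighter probe (adjusted p 9.6e-05), while its second probe changed by 0.08. DACH1, a developmental repressor, fell by 1.50 ± 0.21 at one probe and changed by 0.29 at the other. PSD3, an exchange factor for ARF6, fell by 1.54 ± 0.20 at one probe and changed by -0.21 and -0.05 at the others. Over all genes, 49 went from detection on no untreated array to detection on all 3 treated arrays, and 29 of them were called higher. As many, 49, went from all untreated arrays to no treated array, and 20 of them were called lower.

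The later course is given by the wt arrays at 8 h. Against the untreated arrays, which both times share, 3583 genes (29.7%) were called at 8 h, 1994 higher (16.5%) and 1589 lower (13.2%). In the contrast of 8 h with 4 h, 1617 genes (13.4%) were called, 976 higher (8.1%) and 641 lower (5.32%). This contrast and the change at 4 h use the same 4 h arrays, so values are set side by side and no overlap is drawn. EGR1 had come down at 8 h to 8.26, 8.69 and 8.76 (-1.84 ± 0.23 from 4 h, adjusted p 0.000124), still above all untreated arrays. TRIB1, a pseudokinase induced by mitogens and stress, read 9.56, 9.49 and 9.58 untreated, 10.53, 10.41 and 10.60 at 4 h and 9.21, 9.09 and 9.15 at 8 h, below its starting level. HSPA1A was at 11.39, 11.43 and 11.47 at 8 h, also below all untreated arrays. CCL20 rose further to 12.70, 12.52 and 12.78 (1.79 ± 0.17, adjusted p 9.42e-06). IL32 reached 9.36, 9.22 and 9.09 (1.67 ± 0.19). SH2D3C, a signalling adaptor, was not detected untreated, at least 1.44-fold higher at 4 h and at 7.89, 7.78 and 7.57 at 8 h (2.01 ± 0.19 above 4 h).

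Among the fallen genes, CENPA came back to 7.74, 8.28 and 8.20 at 8 h (1.81 ± 0.14 above 4 h, adjusted p 2.52e-06). KIF18A, a kinesin that trims chromosome movements, read 7.40, 6.62 and 7.44 untreated and 6.09, 6.83 and 6.46 at 4 h, with overlapping arrays and a fall lost in 7 of 17 settings. At 8 h it stood at 8.04, 8.06 and 8.01, above every earlier array. AURKA was at 9.68, 9.89 and 9.70 at 8 h, between its untreated and 4 h levels. ID2 went on down to 8.19, 8.36 and 8.47 (-1.39 ± 0.12 from 4 h, adjusted p 3.86e-06), as did DLL1 (7.12, 6.90 and 7.12) and BCL11A (6.27, 6.41 and 6.60). The guidance receptor ROBO1 fell by 1.39 ± 0.17 on the log2 scale between 4 h and 8 h, after a fall at 4 h (-0.58 ± 0.17) that was lost in 7 of 17 settings.

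**Figure D4:**
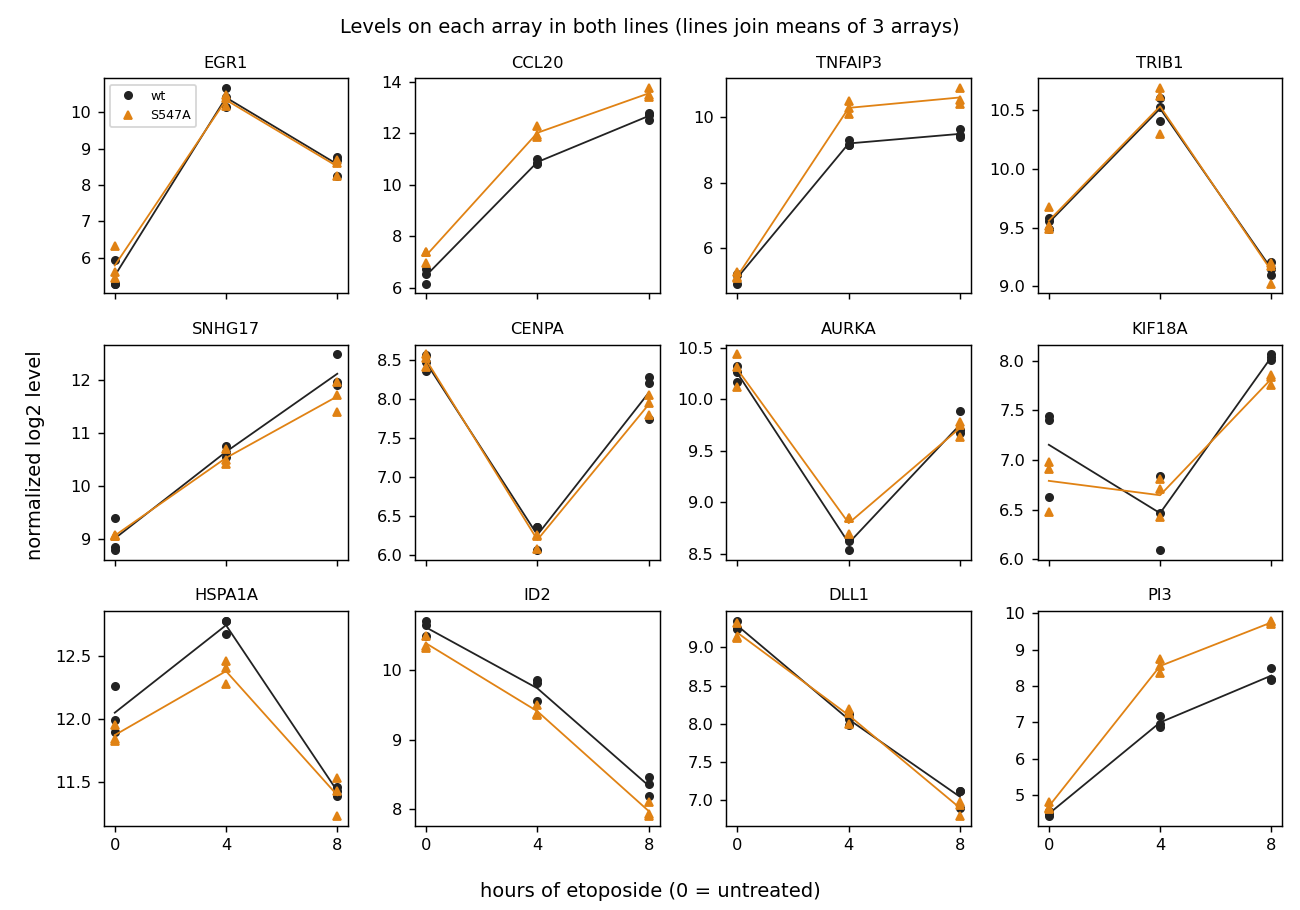
Normalized log2 level of 12 genes on each array of wt (black) and S547A (orange) cells at 0 (untreated), 4 and 8 h of etoposide, with lines through the means of 3 arrays and a separate level axis per gene. EGR1, TRIB1 and HSPA1A peak at 4 h, CCL20 and SNHG17 rise on to 8 h, CENPA and AURKA dip at 4 h, and ID2 and DLL1 fall on.

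The S547A line gave a repeat of the treatment on separate arrays. Its 4 h response called 1146 genes (9.51%), 684 higher (5.67%) and 462 lower (3.83%), and 455 when only the compared arrays were fitted. The arrays are separate, but 1 model gave both lines the same estimate of each gene's spread. The calls shared by the lines below are therefore not from independent tests. Both lines called 453 genes higher, which is 60.2% of the wt calls and 66.2% of the S547A calls, and 248 genes lower, 49.3% and 53.7%. No gene called higher in wt was called lower in S547A, and 1 gene called lower in wt was called higher. Of the 753 genes that rose in wt, the 3 treated arrays lay above the 3 untreated ones in S547A for 610 (81%), beside 13.5% of all genes. Of the 503 that fell, they lay below for 368 (73.2%), beside 12%. Among the genes changed at least 2-fold in wt, 111 of 120 risen and 54 of 72 fallen ones were called the same way in S547A. The wt calls had median changes of 0.66 and -0.70 in wt and of 0.55 and -0.52 in S547A, where the wt values are those by which the genes were called.

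The difference between the lines in the 4 h response was called for 2 genes of 12055 (0.0166%) by limma's interaction test, with 674 at an unadjusted p below 0.05. PI3 rose in both lines and by less in wt: from no detection to 8.73, 8.55 and 8.36 in S547A, at least 9.66-fold there against at least 3.46-fold in wt. The fitted difference of the changes was -1.35 ± 0.18 (adjusted p 0.00648), and it rests on untreated values not above background in either line. PDLIM5, a scaffold of the actin cytoskeleton, read 5.25, 4.97 and 5.25 untreated and 5.38, 5.59 and 5.68 at 4 h in wt, a change of 0.39 that was not called (adjusted p 0.1). In S547A it fell from 6.17, 5.94 and 6.29 to levels not detected, at least 1.84-fold lower (adjusted p 3.27e-05). The fitted difference of 1.63 ± 0.20 (adjusted p 0.00516) rests in part on values not above background and came from 1 of 3 probes, and for the others it was 0.50 and -0.03. It was not called without background correction, in the authors' normalized table or with probes averaged, and that of PI3 was not called when only the compared arrays were fitted (adjusted p 0.0527). The differences for SELE (-1.56 ± 0.28, adjusted p 0.0896) and TNFAIP3 (-1.04 ± 0.20, adjusted p 0.179) did not pass. For GNAQ, which fell in wt, S547A read 5.94, 6.35 and 6.65 untreated and 5.22, 6.36 and 5.49 treated, with overlapping arrays, and the difference was not called either (-1.14 ± 0.39, adjusted p 0.799).

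**Figure D5:**
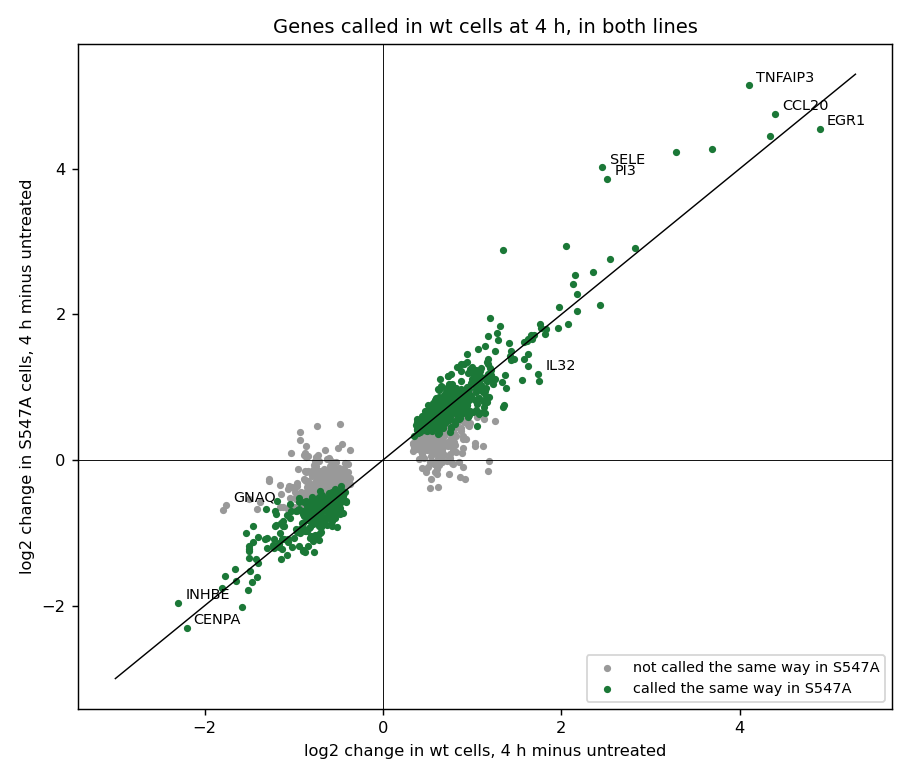
Log2 change at 4 h in S547A cells (vertical) against that in wt cells (horizontal) for the 1256 genes called in wt, green where S547A called the same direction and grey otherwise, with the line of equal change. Green points reach from INHBE and CENPA at the lower left to TNFAIP3, CCL20 and EGR1 at the upper right, and grey points lie mostly at small changes.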

How the data were processed

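Both deposited tables of bead array values from 18 samples were used. The first holds the deposited linear intensity of each of 47231 probes and, per the file headers, a detection p-value of each probe on its own array. The authors' intensity values carry no background subtraction or normalization as far as the values show, and the software named, per the submitters' processing notes, is GenomeStudio, without a version. The second table holds intensities the authors normalized between arrays, with the pattern quantile normalization leaves, and served as an alternative.

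The neqc function of limma 3.58.1 (R 4.3.3) estimated background from the detection p-values, added an offset of 16, applied quantile normalization and took log2 values. Gene symbols came from the probe table of the platform: 30112 probes had 1 symbol, 8 several and 17111 none. After the detection filter 16005 probes with 1 symbol remained, and the brightest stood for its gene. One limma model with a mean per group took in all 18 arrays (12 residual degrees of freedom, moderated two-sided tests). Adjusted p-values are Benjamini-Hochberg values over 12055 genes per comparison. Where no array of a group detected a probe, the fold is a bound, taken against the greater of each array's lowest detected level and the probe's value there. Array number and signal limit the precision.

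Members and all 40 gene lists (576 genes measured) were chosen with earlier results of these data known. Genes named are RELA, NFKBIA, TNFAIP3, TOP2A, TOP2B, CDKN1A, MDM2 and MYC, the 20 largest called changes per direction without overlap of arrays, in each list up to 4 called members per direction, and up to 5 per direction for the line difference and for 8 h against 4 h among genes called at 4 h. Genes used to show a non-passing line difference (SELE, TNFAIP3, GNAQ), and 8 h values of AURKA, DLL1 and BCL11A, were chosen after their values were seen. Promoter sequences are from RefSeq's table and were searched for fixed patterns. The alternatives were a replicate block, the compared arrays only, median scaling, no background correction, offset 50, the authors' table, 3 other filters, the mean of probes, trended robust variances and leaving out each array.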

Additional observations from a re-analysis of the deposited data

Results flagged for a closer look

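The response to 4 h of etoposide differed between the lines for PDLIM5 and PI3 by a test of the difference itself. For PDLIM5 the wt change minus the S547A change was 1.63 on the log2 scale (SE 0.20, limma adjusted p 0.00516), with wt arrays higher at 4 h and S547A arrays lower. The S547A arrays at 4 h were not above background and 1 of 3 untreated wt arrays was, so the size is not exact, and the other probes gave 0.50 and -0.03. For PI3 the same difference was -1.35 (SE 0.18, limma adjusted p 0.00648), with a rise on all treated arrays of both lines. No untreated array of either line was above background for PI3, so only bounds hold for each change, at least 3.46-fold in wt and at least 9.66-fold in S547A.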

How the results depend on the processing

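Of 130 named genes called at 4 h, 86 kept their call in all 17 alternative settings, 44 lost it in at least 1, and none reversed. TOP2B, which was not called, changed by -0.12 to 0.086 when 1 array was left out, the latter without treated array 2 (adjusted p 0.819), beside -0.04. Median scaling called 811 genes in place of 1256, 267 of them higher, with 115 at least 2-fold lower. Genes at least 2-fold higher numbered 41 without background correction, 53 with an offset of 50 and 42 in the authors' table, in place of 120. Those at least 2-fold lower numbered 16, 30 and 16, in place of 72. Leaving out 1 array gave 849 to 969 genes called, 516 to 574 higher, 314 to 398 lower (333 without untreated array 3 and 314 without treated array 1, in place of 503), 117 to 132 at least 2-fold higher and 68 to 86 at least 2-fold lower. Of the genes on lists, 128 to 142 were called.

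Fitting only the compared arrays called 455 genes for S547A, in place of 1146, and 1066 for 8 h against 4 h, in place of 1617. Leaving out 1 array gave 711 to 1028 for S547A (711 without S547A treated array 3), 936 to 1121 for 8 h against 4 h and 2919 to 3019 for wt 8 h against untreated. The difference between lines was called for 1 gene with the compared arrays only or with probes averaged, 4 with median scaling, without background correction, in the authors' table or with trended variances, 5 with an offset of 50, and 2 or 3 when 1 array was left out. Promoter windows with the 50 bases after the start moved the CHR share of fallen mitotic genes to 73.3%, that of all promoters to 11.6% and the kB share of all to 6.57%.

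Deviations of same-numbered arrays from their group means correlated weakly, between -0.0756 and 0.213. Of 15 pairs per number, 5, 1 and 8 were above 0.1 for numbers 1, 2 and 3. Those of number 3 were all positive, at 0.0331 or more. Between untreated and 4 h wt arrays of the same number the values were 0.0331, 0.0113 and 0.0731. With the number as a replicate block 1368 genes were called, 1212 of them among the 1256. Levels near the detection limit bound the change of genes not detected in 1 group.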
